A study of Mus musculus with 6 samples.

Results

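The genes described here are 42 genes of DNA replication and the S phase of the cell cycle, read in aortas of mice deficient in endothelial nitric oxide synthase (eNOS) and of wild-type mice. They were listed by name and role, and each was read on the probe set with the highest mean signal among those that the platform annotation gives to that gene alone. Of the 42, 40 had such a probe set. Rfc4 and Ccne2 did not, because the probe sets annotated to them are shared with Eif4a2 and Ints8, and they were not analysed here. A filter on dim signals (a mean over all arrays of at least 4.38 log2, the 25th percentile of all probe sets) left 39 members among the 18007 genes tested. Orc1 lay just under it. Among the members that passed, Fen1, Gins1 and Brca1 lay closest to the filter.

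Total RNA from aorta of 3 eNOS-deficient samples (11, 15 and 19, numbered as in their titles) and 3 wild-type samples of matched age (2, 3 and 5) was hybridised to 1 Affymetrix array each. The labels name no treatment, and strain, targeted allele, sex and the age itself are not stated in the sources used here. Nor is it stated whether each sample was 1 animal or a pool, so a p-value covers the spread among these arrays alone, which may be technical. All values are log2 signals, so a difference of 1 is a factor of 2, and the number of arrays limits the precision: the median standard error of a difference over the genes tested was 0.156.

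Before a cell divides, it loads the MCM helicase onto origins of replication, fires those origins in S phase, copies the DNA with several polymerases held by a sliding clamp, and wraps the copies in new chromatin. Most of the genes involved are switched on at the border of G1 and S by E2F transcription factors, once the retinoblastoma family is phosphorylated by cyclin-dependent kinases. In the wall of an adult artery, smooth muscle and endothelial cells are largely quiescent, so a low but measurable signal of these genes is the usual state. Immune cells lodged in the outer layer, and lymphoid tissue attached to it, can divide more often.

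Nos3, which encodes eNOS, stood at 7.13, 7.39 and 7.27 on eNOS-deficient 11, 15 and 19 and at 7.99, 7.88 and 7.36 on wild type 2, 3 and 5, with overlap. Whether its probes lie in the part removed is not stated in the sources used here, so it checks no label. Marker genes of several cell types were read on the same arrays. Smooth muscle markers (12 measured) averaged 9.44, 9.25 and 9.54 on the eNOS-deficient arrays and 9.24, 9.06 and 9.01 on the wild-type arrays, without overlap. Of these 12, 11 had a higher mean in eNOS-deficient aorta. At an unadjusted limma p under 0.05, 3 lay higher (7.86% of all genes tested), and the part of these markers in the member values was not tested. Adipocyte markers averaged 10.82 to 11.23 over all arrays. B cell markers (11 measured) averaged 6.08, 8.04 and 8.32 on eNOS-deficient 11, 15 and 19 against 7.89, 8.51 and 7.99 on wild type 2, 3 and 5. T cell markers (10 measured) averaged 5.62 on eNOS-deficient 11 and 6.81 to 7.89 on the other 5 arrays, so eNOS-deficient 11 stood apart as poor in lymphocyte RNA. Squamous epithelium markers (17 measured) averaged 5.22, 5.22 and 5.16 on the eNOS-deficient arrays and 6.05, 5.45 and 8.38 on wild type 2, 3 and 5. The genotypes did not overlap, all 17 had a lower mean in eNOS-deficient aorta, and wild type 5 stood apart. Y-linked genes (3 measured) averaged 7.76, 4.71 and 8.0 on the eNOS-deficient arrays and 3.47 to 3.63 on the wild-type arrays, so a Y-linked signal and genotype differed together. In tissue samples, fewer cells of a type and less RNA per cell cannot be told apart.

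Many promoters of the members share a feature that the list did not use. In windows from 250 bases before to 50 bases after the transcription start, taken from RefSeq (GRCm38.p6), 4 words of the E2F binding site were searched on both strands. The first was TTCCCGC, the second was TTCGCGC, the third was TTGCCGC and the fourth was TTGGCGC. Overlapping matches were counted apart. Of 44 windows of 37 members, 28 held a match (63.6%), against 9.57% of all 32851 windows. The cell cycle homology region (CHR), TTTGAA, which marks promoters of genes of G2 and mitosis, was in 13.6% of the members' windows, 17.9% of all windows and 74.2% of 31 windows of mitosis genes. E2F words were in 16.1% of the mitosis windows. They were also in 54.8% of 42 windows of replication genes outside the members, and in 30.6% of 36 windows of G1/S control genes. The feature is thus not particular to the members. CCAAT, the word bound by NF-Y, was in 56.8% of the members' windows, 74.2% of the mitosis windows and 37.4% of all windows. E2F words are rich in G and C, and base composition was not matched between these windows.

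**Figure D1:**
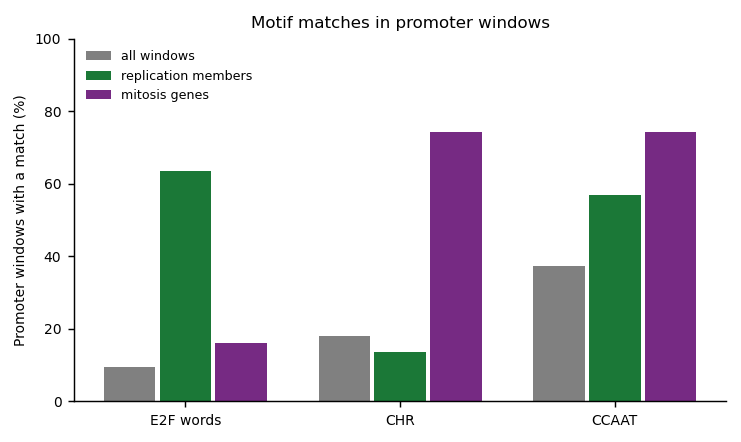
Share of promoter windows of 300 bases that hold at least 1 match (%, vertical axis) to the E2F words, the CHR and CCAAT, for all windows, the replication members and the mitosis genes. E2F words were in 63.6% of the members' windows and the CHR in 74.2% of the mitosis windows, each against under 20% of all windows.

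Stretches of 100 bases are shown for the 6 members with the smallest p-values below. The genes were chosen by p-value, but each stretch was placed to hold an E2F word. Where a gene had several windows, the search favoured the one with the most such words. All 6 genes had an E2F word in a window, as did 18 of the 30 other measured members with a window. A link between the words and the differences was not tested. Capitals mark the E2F words, on either strand.

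Uhrf1: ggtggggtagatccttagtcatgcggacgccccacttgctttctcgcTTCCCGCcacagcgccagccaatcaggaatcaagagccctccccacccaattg
Chaf1a: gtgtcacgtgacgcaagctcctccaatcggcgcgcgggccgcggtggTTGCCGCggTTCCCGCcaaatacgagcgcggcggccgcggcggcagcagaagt
E2f8: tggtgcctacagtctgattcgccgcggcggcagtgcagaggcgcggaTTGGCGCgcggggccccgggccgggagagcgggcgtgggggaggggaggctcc
Lig1: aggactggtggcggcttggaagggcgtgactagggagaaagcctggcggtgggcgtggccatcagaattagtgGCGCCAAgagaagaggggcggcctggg
Clspn: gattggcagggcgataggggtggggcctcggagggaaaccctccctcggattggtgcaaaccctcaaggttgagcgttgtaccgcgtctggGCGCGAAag
Rrm2: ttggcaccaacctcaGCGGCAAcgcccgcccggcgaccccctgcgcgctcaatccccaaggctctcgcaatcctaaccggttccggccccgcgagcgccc

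The Uhrf1 stretch is chr17:56303242-56303341 on the plus strand. The Chaf1a stretch is chr17:56040313-56040412 on the plus strand. The E2f8 stretch is chr7:48881655-48881754 on the minus strand. The Lig1 stretch is chr7:13279195-13279294 on the plus strand. The Clspn stretch is chr4:126556910-126557009 on the plus strand. The Rrm2 stretch is chr12:24708004-24708103 on the plus strand. In Uhrf1 the word TTCCCGC begins 48 bases before the start, and in Chaf1a TTGCCGC and TTCCCGC begin 56 and 47 bases before it. In E2f8 TTGGCGC begins 111 bases before the start. In Rrm2 the word TTGCCGC, read on the opposite strand, lies 235 bases before it. In Lig1 and Clspn the match, also on the opposite strand, lies just after the start. A match is a run of letters and does not show that an E2F protein is bound in aorta.

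None of the 39 tested members passed the test over all genes (limma, Benjamini-Hochberg adjusted p under 0.05), where 5 of 18007 genes (0.0278%) did, 0.0167% as lower and 0.0111% as higher. The direction was uneven: 30 of the 39 had a lower mean in eNOS-deficient aorta, beside 43.4% of all genes tested. At an unadjusted limma p under 0.05, 6 members lay lower (background 3.72% of genes tested) and none lay higher (background 7.86%). These were Rrm2, Uhrf1, Clspn, E2f8, Lig1 and Chaf1a. The median difference over the 40 measured members was -0.12 log2, and over the genes tested it was 0.04. Each array centred on its median gave -0.05 for the members and 0.10 for all genes, with 0 members lower at the unadjusted threshold, and quantile normalization repeated gave -0.09 and 2 members. Centring also turned Orc6, Mcm2, Pola2, Rfc5, Rrm1 and Dut from negative to positive, so fewer than 30 members then had a lower mean. After centring, Rrm2 was at -0.65, Uhrf1 at -0.42, Clspn at -0.37, E2f8 at -0.36 and Lig1 at -0.30, each with a limma unadjusted p of 0.0521 to 0.0587, and Chaf1a was at -0.27 (0.114). Over all genes the split at that threshold was 669 lower and 1415 higher as deposited, and 388 and 2028 after centring.

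**Figure D2:**
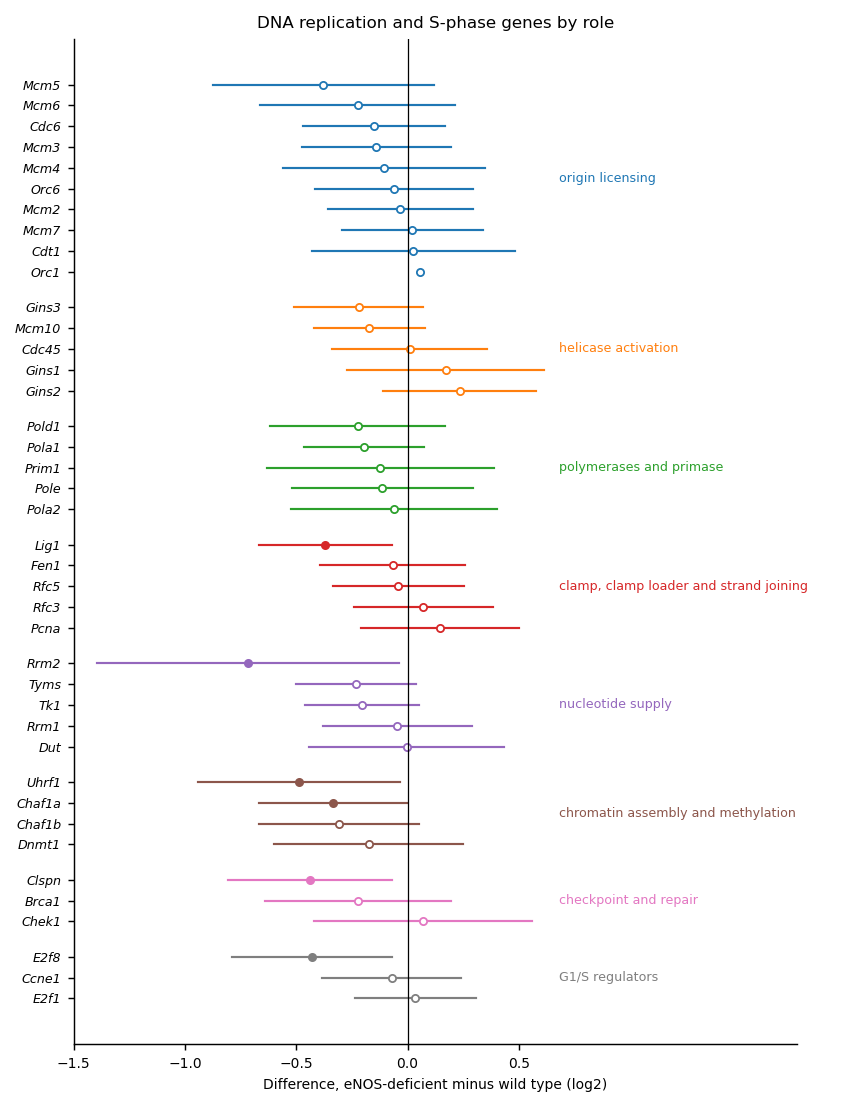
Difference between eNOS-deficient and wild-type means in log2 (horizontal axis) for each measured member, grouped by role, with 95% limma intervals. Filled points are the 6 members with an unadjusted p under 0.05; Orc1 was too dim to be tested and has no interval.

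Origin licensing, the loading of the helicase in G1, showed no member at the unadjusted threshold among 9 tested. Differences ran from -0.38 in Mcm5 to 0.06 in Orc1, with a median of -0.08. Mcm2 to Mcm7 encode the 6 subunits of the helicase ring, and their mean was 6.33, 6.60 and 6.72 on eNOS-deficient 11, 15 and 19 and 6.65, 6.83 and 6.60 on wild type 2, 3 and 5. The genotypes overlapped, and eNOS-deficient 11 was the lowest array. Mcm5 measured 5.89, 6.49 and 6.30 in eNOS-deficient aorta and 6.51, 6.95 and 6.36 in wild type. Its difference of -0.38 had a 95% interval of -0.87 to 0.12 (limma adjusted p = 0.526), and eNOS-deficient 15 lay above wild type 5. It was -0.21 without either eNOS-deficient 11 or wild type 3, -0.0028 with the mean of the Y-linked genes as a covariate, an alternative added once the data had been seen, and -0.61 with squamous epithelium markers as a covariate (limma unadjusted p = 0.0411). Mcm7, in the same ring, differed by 0.02, Mcm2 by -0.03, Mcm4 by -0.11, Mcm3 by -0.14 and Mcm6 by -0.23. Of these 6, 5 thus had negative differences, where 43.4% of all genes tested did, and Mcm7 lay near 0. Each of their intervals spans 0.

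The factors that load the ring were as close. Orc6, a subunit of the origin recognition complex, stood at 7.09, 7.12 and 6.91 against 7.15, 7.30 and 6.85. Its interval of -0.42 to 0.29 spans 0. Cdc6 and Cdt1, which bring the helicase to the origin, differed by -0.15 and 0.03. Orc1, the other origin recognition subunit listed, measured 4.34, 4.32 and 4.50 against 4.18, 4.46 and 4.36, all near the dim filter, and was not tested.

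Helicase activation, which turns the loaded ring into a moving CMG helicase together with Cdc45 and the GINS complex, split between directions. Gins3 measured 6.09, 6.15 and 6.01 in eNOS-deficient aorta and 6.46, 6.25 and 6.20 in wild type. Gins2, another subunit of the same complex, measured 6.06, 5.96 and 6.05 against 5.89, 5.96 and 5.52. Neither pair of groups overlapped, and the signs were opposite (-0.22 and 0.23, limma adjusted p = 0.532 and 0.578). The gap between the groups for Gins2 is smaller than the rounding of these values. Mcm10, an initiation factor that joins the helicase, measured 5.25, 5.26 and 5.33 against 5.45, 5.47 and 5.43. The separation is clean but the size is small, -0.17 (interval -0.42 to 0.08). Cdc45 stood at 6.40, 6.15 and 6.12 against 6.17, 6.43 and 6.04, with a difference of 0.01, and Gins1 differed by 0.17.

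Of the polymerases and primase, 5 of 5 had negative differences, beside 43.4% of all genes tested, and none reached the unadjusted threshold. The sign of 3 of them depended on a single array or setting. Prim1 turned to 0.12 without eNOS-deficient 11, to 0.04 with wild type 5 left out as well, and to 0.19 with the Y-linked covariate. Pola2 turned to 0.10 without wild type 2 and to 0.0052 after centring. Pole turned to 0.05 without wild type 3 and to 0.06 as the mean of its probe sets. Pola1, the catalytic subunit of the polymerase that starts each strand, measured 6.31, 6.48 and 6.53 in eNOS-deficient aorta and 6.66, 6.63 and 6.63 in wild type. All 3 eNOS-deficient arrays lay below all wild-type arrays, by -0.20 on average (interval -0.47 to 0.07, limma adjusted p = 0.549). Pola2, its regulatory partner, stood at 7.15, 7.15 and 7.21 against 7.55, 7.34 and 6.79, so wild type 5 lay below all eNOS-deficient arrays. Prim1, the primase subunit that makes the RNA primer, differed by -0.12. Pold1 and Pole, the catalytic subunits of the lagging and leading strand polymerases, differed by -0.22 and -0.11. A second, dimmer probe set of Pole gave 0.23, of the opposite sign.

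Of the clamp, its loader and the strand-joining enzymes, 1 of 5 tested members, the ligase, reached the unadjusted threshold as lower. The share of all genes tested that did so was 3.72%. Pcna, the sliding clamp that holds polymerases on DNA and is also used in repair, measured 8.94, 9.00 and 9.22 against 8.67, 8.96 and 9.09. Its difference was 0.14 (interval -0.21 to 0.50), the largest positive one after Gins2 and Gins1. Rfc3 and Rfc5, subunits of the loader that opens the clamp, differed by 0.07 and -0.04, and Fen1, which trims Okazaki fragments, by -0.07 on one probe set and -0.04 on the other. Lig1, the ligase that seals those fragments, measured 5.54, 5.65 and 5.77 in eNOS-deficient aorta and 5.97, 6.17 and 5.93 in wild type. The groups did not overlap, and the difference was -0.37 (standard error 0.128, unadjusted p = 0.0221, limma adjusted p = 0.366). Without eNOS-deficient 11 it was -0.31 (limma unadjusted p = 0.0734), without eNOS-deficient 15 it was -0.37 (0.0617), and without wild type 3 it was -0.30 (0.0759).

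Nucleotide supply held Rrm2, the member with the largest difference on all 6 arrays, although without eNOS-deficient 11 E2f8 differed more. Ribonucleotide reductase makes deoxynucleotides from 2 kinds of subunit: Rrm1 is the large, longer-lived one and Rrm2 the small one that is limiting and made in S phase. Rrm2 measured 4.35, 5.20 and 5.38 in eNOS-deficient aorta and 5.53, 6.04 and 5.50 in wild type. All eNOS-deficient arrays were below all wild-type arrays. The value on eNOS-deficient 11 was far below the rest and lay under the 4.38 log2 of the dim filter. The difference was -0.72 (interval -1.39 to -0.04, unadjusted p = 0.0408, limma adjusted p = 0.412). It was -0.40 without eNOS-deficient 11 (limma unadjusted p = 0.0920), -0.80 without wild type 2 (0.0581), -0.54 without wild type 3 (0.135), -0.43 with the Y-linked covariate (0.467) and -0.57 with the B and T cell marker mean as a covariate (0.00564). A second probe set of Rrm2, at a mean of 2.36 and thus under the dim filter, gave -0.16. Rrm1 stood at 7.92, 7.74 and 7.69 against 7.77, 8.04 and 7.66, a difference of -0.05 (interval -0.38 to 0.29).

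Neither thymidylate enzyme reached the unadjusted threshold. Tyms, which makes thymidylate from deoxyuridylate, measured 6.78, 6.96 and 6.91 against 7.17, 7.05 and 7.12. Tk1, the S-phase thymidine kinase of the salvage route, measured 6.44, 6.52 and 6.52 against 6.63, 6.73 and 6.75. For both, every eNOS-deficient array lay below every wild-type array. The differences were -0.23 for Tyms and -0.21 for Tk1, with limma unadjusted p of 0.0830 and 0.0998. After centring they were -0.17 and -0.14, and Tyms was -0.12 with the Y-linked covariate. Dut, which removes deoxyuridine triphosphate, differed by -0.0037, with eNOS-deficient 15 the highest of the 6 arrays.

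Chromatin assembly and maintenance methylation were negative in 4 of 4 members, and 2 of them reached the unadjusted threshold. Over all genes tested, 43.4% had negative differences and 3.72% lay lower at that threshold. Their mean was 5.83, 6.01 and 6.22 on eNOS-deficient 11, 15 and 19 and 6.37, 6.48 and 6.20 on wild type 2, 3 and 5, so eNOS-deficient 19 lay above wild type 5. Uhrf1, which recognises hemimethylated DNA behind the fork and brings Dnmt1 to it, measured 5.28, 5.80 and 5.94 in eNOS-deficient aorta and 6.35, 6.07 and 6.07 in wild type. The groups did not overlap, with eNOS-deficient 11 again lowest, and the difference was -0.49 (standard error 0.194, unadjusted p = 0.0386, limma adjusted p = 0.407). Without eNOS-deficient 11 it was -0.29 (limma unadjusted p = 0.105), without eNOS-deficient 15 -0.55 (0.0513), without wild type 2 -0.40 (0.122) and without wild type 3 -0.53 (0.0605). Nor did Uhrf1 reach the unadjusted threshold with squamous epithelium markers as a covariate. Dnmt1, the methyltransferase it brings, stood at 7.48, 7.75 and 8.03 against 7.86, 8.16 and 7.77, with overlap and a difference of -0.18. Chaf1a, the large subunit of the histone chaperone CAF-1, measured 5.06, 4.96 and 5.16 against 5.25, 5.62 and 5.32. Its groups did not overlap, and its difference of -0.34 lay at the edge of the unadjusted threshold (unadjusted p = 0.0478, limma adjusted p = 0.428). It was -0.22 without wild type 3 (limma unadjusted p = 0.154), and -0.28 to -0.39 without any 1 of the eNOS-deficient arrays (0.0555 to 0.147). Chaf1b, its partner, measured 5.52, 5.55 and 5.77 against 6.03, 6.07 and 5.66, a similar -0.31 with wild type 5 among the eNOS-deficient values.

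Of the 3 checkpoint and repair genes, 1 reached the unadjusted threshold as lower, where 3.72% of all genes tested did. Clspn encodes claspin, the adaptor through which a stalled fork activates the kinase Chk1. It measured 4.93, 5.29 and 4.91 in eNOS-deficient aorta and 5.43, 5.67 and 5.34 in wild type. The groups did not overlap, although eNOS-deficient 15 and wild type 5 were close, and the difference was -0.44 (interval -0.81 to -0.07, unadjusted p = 0.0255, limma adjusted p = 0.373). It was -0.06 with the Y-linked covariate (limma unadjusted p = 0.828). Without eNOS-deficient 11 it was -0.38 (limma unadjusted p = 0.0760), without eNOS-deficient 19 -0.37 (0.0822) and without wild type 3 -0.34 (0.0878). Chek1, which encodes Chk1 itself, differed by 0.07, with wild type 2 the lowest array at 4.43. Brca1, which acts in repair by homologous recombination and protects stalled forks, differed by -0.22 (interval -0.64 to 0.20).

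Of the 3 measured G1/S regulators, 1 reached the unadjusted threshold as lower (3.72% of all genes tested). E2f1, an activator of the genes above, stood at 6.39, 6.48 and 6.48 against 6.49, 6.46 and 6.29, a difference of 0.03 (interval -0.24 to 0.31). E2f8, an atypical E2F that is itself made in S phase and represses E2F targets afterwards, measured 5.30, 5.16 and 5.21 against 5.39, 5.89 and 5.67. All eNOS-deficient arrays lay below all wild-type arrays, by -0.43 (interval -0.79 to -0.07, unadjusted p = 0.0250, limma adjusted p = 0.372). Without eNOS-deficient 11 its difference was -0.47 (limma unadjusted p = 0.0373), and no other member stayed under the unadjusted threshold there. It was -0.40 without eNOS-deficient 15 (limma unadjusted p = 0.0773), -0.42 without eNOS-deficient 19 (0.0600) and -0.31 without wild type 3 (0.0833). With squamous epithelium markers as a covariate, E2f8 did not reach the unadjusted threshold. Ccne1, cyclin E1, which drives entry into S phase, differed by -0.07.

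**Figure D3:**
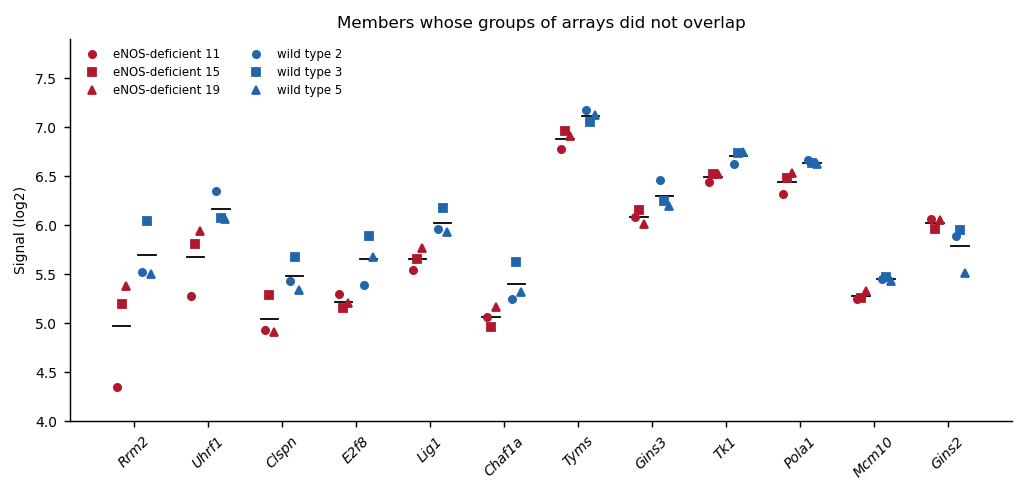
Log2 signal (vertical axis) on each of the 6 arrays for the 12 members whose groups of arrays did not overlap, ordered by difference; red marks are eNOS-deficient, blue marks wild type, and bars are group means. In 11 of them the eNOS-deficient arrays lie below the wild-type arrays, and in Gins2 they lie above.

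Across members, 11 of the 39 tested had eNOS-deficient arrays wholly below wild type (background 6.48% of genes tested) and 1 wholly above (background 13.1%). With 3 arrays against 3 an exact two-sided permutation test of a single gene cannot give a p below 0.1. The arrays did not contribute evenly. Of the 40 measured members, 19 had their lowest value on eNOS-deficient 11 (47.5%, against 15.4% of all genes tested), and 21 had their highest on wild type 3 (52.5%, against 15.1%). Member means were 5.98, 6.10 and 6.17 on eNOS-deficient 11, 15 and 19 and 6.20, 6.35 and 6.12 on wild type 2, 3 and 5. Wild type 5 thus lay below eNOS-deficient 19, and the member means of the genotypes overlapped. B cell markers were also lowest on eNOS-deficient 11 and highest on wild type 3. Their part in the member values was tested only as a covariate, together with T cell markers. With it, 5 members stayed lower at the unadjusted limma threshold (3.91% of all genes tested), and the members' median was -0.07. Leaving out wild type 3 left 0 members lower, where 4.03% of all genes tested lay lower. Leaving out eNOS-deficient 11 left 1 (3.11% of all genes tested), eNOS-deficient 15 left 2 (2.38%), eNOS-deficient 19 left 3 (2.75%) and wild type 2 left 4 (3.1%). Leaving out wild type 5 gave 8, but the share over all genes tested also rose, to 5.93%. Without eNOS-deficient 11 and wild type 5 together, 5 lay lower (6.2% of all genes tested), 4 of them among the 6. With the Y-linked covariate 0 did, and the median was -0.12. Over all genes tested, 1.26% then lay lower and 1.53% higher, so calls fell for genes of any kind. That covariate goes with genotype, so the 2 cannot be told apart.

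**Figure D4:**
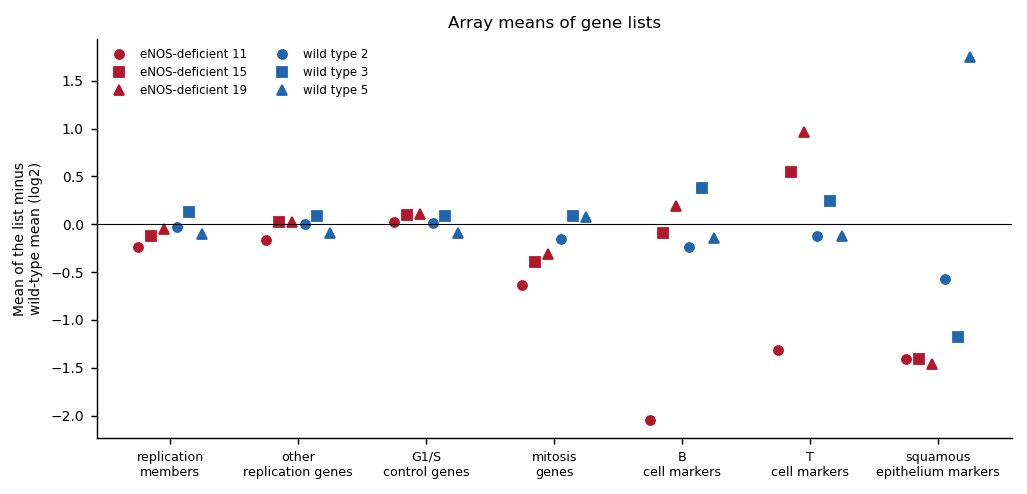
Mean log2 signal of each gene list on each array, relative to the mean of the wild-type arrays (vertical axis); red marks are eNOS-deficient and blue marks wild type. The replication members overlap between genotypes, the mitosis genes do not, and eNOS-deficient 11 is far down for B and T cell markers.

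Other genes of the pathway showed no common direction. Of 44 tested genes in a list of further replication factors, 2 lay lower and 3 higher at the unadjusted limma threshold, and 0 passed the adjusted test. These counts are near the shares over all genes tested, 3.72% lower and 7.86% higher. The median of the list was -0.03, which turned to 0.04 with arrays centred on their medians. Cdc7, the kinase that fires origins, measured 4.53, 5.23 and 5.30 in eNOS-deficient aorta and 5.68, 5.64 and 5.58 in wild type, with no overlap. Cdca7, a cofactor of the chromatin remodeller Hells, differed by -0.76. Pold2, a small subunit of the lagging strand polymerase, lay on the other side at 8.65, 8.56 and 8.47 against 8.09, 8.14 and 7.96. Rpa3, the smallest subunit of the protein that coats single-stranded DNA, measured 8.71, 8.64 and 8.43 against 8.12, 8.21 and 8.03. Pold1, which shares a polymerase with Pold2, overlapped between the genotypes, at 6.15, 6.41 and 6.44 against 6.57, 6.81 and 6.29.

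Among 32 genes of G1/S control, 1 reached the unadjusted limma threshold as higher (7.86% of all genes tested) and 0 as lower (3.72%), with a median of 0.06. It was Cdkn1a, which encodes p21, the inhibitor of cyclin-dependent kinases that holds cells in G1. Cdkn1a stood at 8.85, 9.25 and 9.97 in eNOS-deficient aorta and 7.71, 8.11 and 9.13 in wild type. Its difference was 1.04 (standard error 0.410, limma adjusted p = 0.402), and wild type 5 lay inside the eNOS-deficient range. E2f5 and E2f4, E2F members that work with the retinoblastoma family in resting cells, differed by 0.26 and 0.32, and Cdkn2d, another kinase inhibitor, by -0.26. None of these 3 reached the unadjusted threshold, and the groups of each did not overlap. Nor did those of Cdkn2c (higher) and Cdkn2a (lower). In all, 3 of the 32 lay wholly higher and 2 wholly lower, beside 13.1% and 6.48% of all genes tested.

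Genes of the mitosis list, some of which, such as Ccna2, also act in S phase, differed more. Of 32 tested, 20 lay lower at the unadjusted limma threshold and 0 higher (3.72% and 7.86% of all genes tested), with 0 past the adjusted test. Their median over 33 measured was -0.42 beside -0.12 for the members. Both lists were read on the same arrays and no test of the difference between lists was made. Leaving out single arrays gave 14 to 20 lower mitosis genes, and dropping both eNOS-deficient 11 and wild type 5 gave 12. The epithelium covariate gave 9 (5.95% of all genes tested) and the Y-linked covariate 3 (1.26%). Both covariates went with genotype, so their part and that of genotype cannot be told apart. Array means of the mitosis list were 5.36, 5.60 and 5.69 in eNOS-deficient aorta and 5.84, 6.08 and 6.07 in wild type, without overlap. Ccna2, cyclin A2, which acts in S phase and G2, differed by -0.81, Knl1 of the kinetochore by -0.78, Mki67 by -1.25 and Bub1, a spindle checkpoint kinase, by -0.65. Rrm2, at -0.72, is the member whose difference lay nearest to these.

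**Figure D5:**
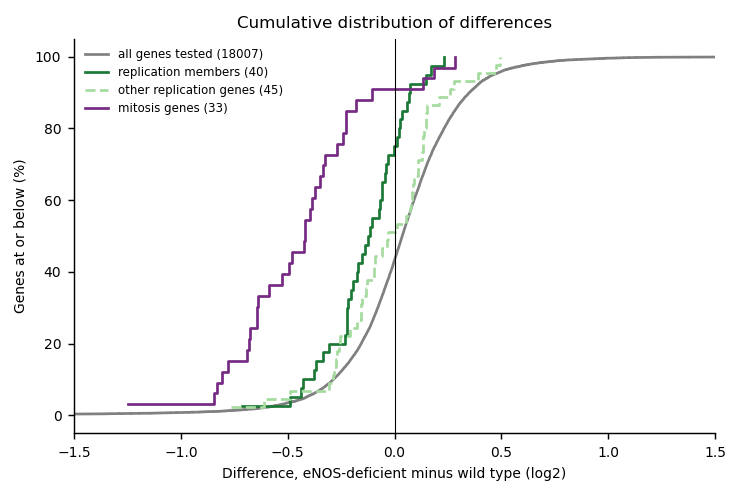
Cumulative share of genes (%, vertical axis) at or below each difference in log2 (horizontal axis) for all genes tested, the 40 measured members, 45 other replication genes and 33 mitosis genes. The members lie slightly left of all genes with a median of -0.12, and the mitosis genes lie further left with a median of -0.42.

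Markers of germinal centre B cells, a dividing lymphocyte population, were mixed in direction. The 6 measured averaged 6.61, 6.74 and 6.78 on the eNOS-deficient arrays and 7.11, 7.12 and 7.05 on the wild-type arrays. At the unadjusted limma threshold 3 of 6 lay lower and 0 higher (3.72% and 7.86% of all genes tested). The 3 were Rgs13 at -1.45, Mybl1 at -1.01 and Gcsam at -0.64, while Bcl6 differed by 0.55, Fas by 0.29 with no overlap and S1pr2 by -0.03. Their part in the replication and mitosis values was not tested. Erythroid precursor markers, of another dividing lineage, averaged 5.38 to 5.42 against 5.44 to 5.50 over 7 measured genes. Of the vessel's own cells, endothelial markers (12 measured) averaged 8.02, 8.27 and 8.35 against 8.58, 8.65 and 7.80, with overlap. Fibroblast markers averaged 9.10 to 9.32 against 8.51 to 8.90, without overlap, and all 12 had a higher mean in eNOS-deficient aorta. At the unadjusted limma threshold 6 of the 12 lay higher (7.86% of all genes tested). The part of fibroblast markers in the member values was not tested. Macrophage markers averaged 8.36 to 8.75 against 7.66 to 7.95, with 9 of 12 higher at the unadjusted limma threshold, where 7.86% of all genes were.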

How the data were processed

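Values are log2 signals deposited by the authors for 1 Affymetrix array per sample, made with RMA, which corrects background, normalizes by quantiles and summarises probes, in Affymetrix Expression Console 1.3.1, per the submitters' processing notes. Scanner values were not used here. Probe sets were named from the platform annotation: of 41345, 23521 listed 1 gene symbol, 1814 several and 16010 none. The probe set with the highest mean was kept for each of 22180 genes, and 18007 at or above 4.38 log2 were tested with limma 3.58.1 in R 4.3.3 (lmFit, eBayes, two-sided, no covariates), with Benjamini-Hochberg adjustment over 18007 genes. The model was tested on simulated data.

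The members and lists were chosen with earlier results of these data known. Array values are given for members with an unadjusted p under 0.05 or groups without overlap, and for the smallest p and highest signal in each role; from other lists, up to 4 genes by smallest p. No 2 arrays shared over 0.109% of their values. Promoter windows came from RefSeq (GRCm38.p6), for 37 of 42 members. Alternatives were dim filters, variance models, probe set means, centring, repeated quantile normalization, array weights, marker covariates and left-out arrays. Plots used matplotlib 3.10.9 in Python 3.11.15.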

Additional observations from a re-analysis of the deposited data

How the results depend on the processing

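No member passed the adjusted limma test under any alternative run, and none was higher at an unadjusted p under 0.05 under any. The count of members lower at that threshold was 6 of 39 tested (3.72% of all genes tested). It was 2 of 29 with a dim filter at the 50th percentile (2.14%), which left Rrm2, Clspn, E2f8 and Chaf1a untested. It was 0 with arrays centred on their medians (2.15%), 2 with quantile normalization repeated (2.69%) and 0 with the Y-linked mean as a covariate (1.26%). Leaving out 1 array gave 0 to 8, with 2.38% to 5.93% of all genes tested lower. It was 5 to 7 under the other alternatives, with 3.32% to 7.22% of all genes tested lower. The genes changed with the epithelium covariate: of 7 lower there, 4 were among the 6, without E2f8 and Uhrf1. The members' median difference stayed below 0 throughout, from -0.21 with epithelium markers as a covariate to -0.05 after centring, and from -0.20 to -0.06 with 1 array left out. The median of the G1/S control genes was -0.077 with the epithelium covariate, -0.016 without wild type 5, and -0.016 to 0.11 with 1 array left out. The mitosis median ran from -0.51 to -0.33. No paired analysis was possible because the groups share no replicate numbers. Y-linked signal was higher on each eNOS-deficient array than on any wild-type array, so differences that go with it and with genotype cannot be told apart. The same holds for the mean of the squamous epithelium markers, which was lower on each eNOS-deficient array than on any wild-type array. The cause of these shifts was not tested.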
